A study of Mus musculus with 20 samples.

Results

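The Hoxd cluster, a row of 9 homeobox genes on mouse chromosome 2, was examined as the 180 kb window chr2:74450001-74630000 of the mm9 assembly. It was chosen to hold the genes from Hoxd13, on the low-coordinate side, to Hoxd1, on the high-coordinate side. In the GRCm38.p6 assembly the starts of these 2 genes lie closer together than the window is long. The window is thus wider than the distance between them, and its coverage is not that of the genes alone. The members were the peaks that overlapped the window by at least 1 bp in any of 8 deposited peak lists, which made 167 of 218887 peaks. The window was selected on fetal H3K27me3, since it holds the widest fetal peak of that mark. The width and coverage of fetal H3K27me3 are therefore given as a description, and nothing is supported with them.

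The peaks come from chromatin immunoprecipitation and sequencing (ChIP-seq) of hematopoietic stem cells (HSCs) of B6129SF1 mice, for which the labels name no treatment or transgene. Fetal cells were from the liver at embryonic day 14.5 and adult cells from the bone marrow at 6 to 8 weeks, and at both stages the sort kept Sca1+ cKit+ cells without lineage markers or CD135. That gate rests on no further marker, so what share of the cells were stem cells in function is not known. The labels give 2 replicates for each of 4 marks and for input at each stage, but each mark and stage has only 1 combined list. No value below therefore carries a replicate error, and no test between stages was possible. Stage cannot be told apart from tissue (liver or bone marrow), library, depth or peak call. The adult lists of H3K4me1 and H3K27me3 hold narrower peaks than the fetal ones throughout the genome, with median widths of 193 against 429 bp and of 278 against 1406 bp.

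H3K27me3 is laid down by Polycomb repressive complex 2, whose catalytic subunit is Ezh2 or Ezh1, and is bound by forms of Polycomb repressive complex 1 that help keep genes silent. Hox clusters are classical Polycomb targets, in which the mark can spread over a whole row of genes. H3K4me3 marks promoters that are active or poised, H3K4me1 marks enhancers and the surroundings of promoters, and H3K27ac marks active promoters and enhancers. A promoter with both H3K4me3 and H3K27me3 is called bivalent. Hox proteins give cells their position along the body axis. The genes from Hoxd13 to Hoxd9 are relatives of Drosophila Abdominal-B and act in the posterior trunk, limbs and genitalia. Hoxd8, Hoxd4, Hoxd3 and Hoxd1 lie towards the anterior end of the series. Blood stem cells are known for using genes of the Hoxa and Hoxb clusters more than those of Hoxd.

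In the RefSeq annotation the nearest protein-coding gene before Hoxd13 is Evx2, a homeobox gene. The cluster is followed by Mtx2, a gene for a mitochondrial outer membrane protein. Between the Hoxd genes lie Mir10b, the gene of miR-10b, and other noncoding genes, among them Haglr and Hoxd3os1. That annotation belongs to GRCm38.p6 and the peaks to mm9, so the order of the genes is given and no peak was assigned to a gene.

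CpG-rich promoters are known as places where Polycomb complexes are recruited, and the CG dinucleotide was therefore counted in the 250 bases before each gene start in RefSeq promoters of GRCm38.p6. CG reads the same on both strands, so 1 strand was searched, and matches cannot overlap. All 9 genes matched, with 10 promoters, because Hoxd11 has 2 starts. The promoters of the cluster's end genes were the richest among those of the 9 genes, and that of Hoxd4 was among the poorest, so these 3 are shown, each from 5′ to 3′ on the plus strand with every CG in capitals. Hoxd13 is at chr2:74667975-74668224, Hoxd4 at chr2:74721728-74721977 and Hoxd1 at chr2:74762730-74762979, all in GRCm38.p6 and not comparable with the mm9 positions used for peaks.
Hoxd13: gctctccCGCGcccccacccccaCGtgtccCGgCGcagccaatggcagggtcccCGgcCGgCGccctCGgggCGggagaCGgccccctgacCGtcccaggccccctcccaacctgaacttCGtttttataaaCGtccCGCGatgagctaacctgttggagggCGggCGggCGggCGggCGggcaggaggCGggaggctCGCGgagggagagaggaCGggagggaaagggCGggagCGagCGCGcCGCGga
Hoxd4: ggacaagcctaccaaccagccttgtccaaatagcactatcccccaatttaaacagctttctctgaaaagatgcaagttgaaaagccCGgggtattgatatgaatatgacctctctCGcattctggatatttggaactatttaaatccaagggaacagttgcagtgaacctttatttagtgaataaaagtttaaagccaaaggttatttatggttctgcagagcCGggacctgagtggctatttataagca
Hoxd1: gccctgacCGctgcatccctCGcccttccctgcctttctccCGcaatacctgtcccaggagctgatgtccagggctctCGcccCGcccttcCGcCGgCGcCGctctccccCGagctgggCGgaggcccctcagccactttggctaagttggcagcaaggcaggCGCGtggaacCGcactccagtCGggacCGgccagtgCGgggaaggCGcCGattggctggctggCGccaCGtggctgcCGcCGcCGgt

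The Hoxd13 sequence holds 31 CG dinucleotides, and 5.19% of all 32851 RefSeq promoters have at least as many. Hoxd1 has 24 (12% of all promoters have at least as many) and Hoxd4 has 3 (71.0%). Between them, Hoxd10 and the second start of Hoxd11 have 20 each, Hoxd9 has 13, Hoxd3 has 12, Hoxd12 has 10, Hoxd8 has 6 and the first start of Hoxd11 has 2. The cluster thus mixes CG-rich and CG-poor promoters. Its median of 12.5 lies above the median of 6 over all promoters. That median is exceeded by 7 of its 10 promoters and by 15211 of all 32851, and 10 promoters are too few to estimate a share. A CG was present in 100% of the Hoxd promoters and in 92.1% of all promoters, so its mere presence sets nothing apart.

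**Figure D1:**
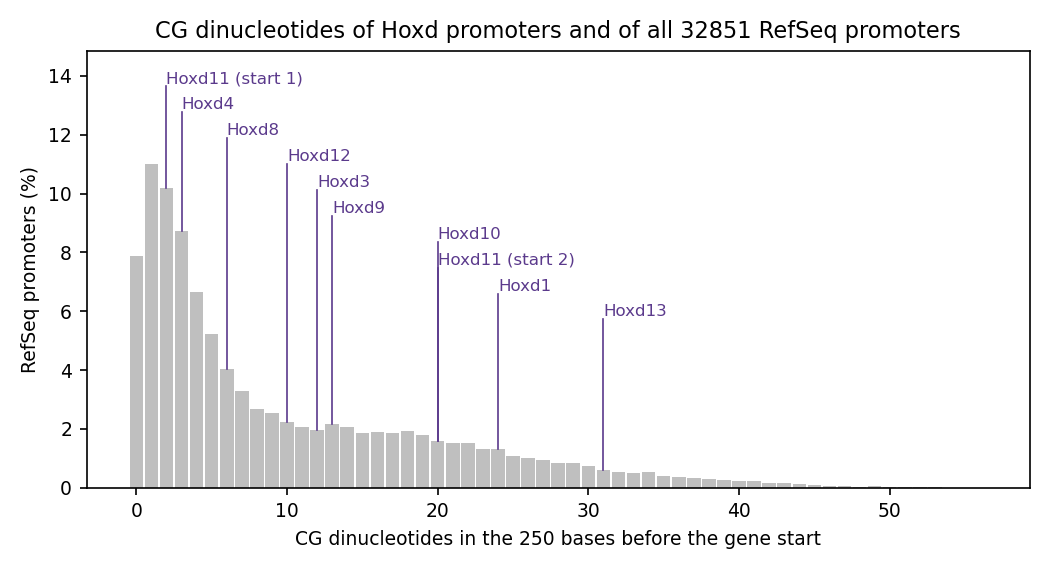
Grey bars give the share of 32851 RefSeq promoters (%) with each number of CG dinucleotides in the 250 bases before the gene start, and purple lines mark the 10 promoters of the 9 Hoxd genes. Hoxd13, at 31, lies farthest to the right and the first start of Hoxd11, at 2, farthest to the left.

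Within this window, H3K27me3 was called over a nearly continuous stretch in fetal HSCs, and over the same stretch in many short pieces in adult HSCs. Adult H3K27me3 peaks were narrower throughout the genome, so short pieces are not particular to this cluster. Neither stage had an H3K27ac peak in the window. Fetal H3K27me3 covered 119616 bp in 8 pieces, or 66.5% of the window. Adult H3K27me3 covered 83398 bp in 128 pieces, or 46.3%. H3K4me3 covered 3468 bp in 4 fetal peaks and 1719 bp in 2 adult peaks. H3K4me1 covered 12985 bp in 24 fetal peaks and 144 bp in 1 adult peak. By covered length, H3K27me3 was the main mark of the window at both stages, and the H3K4 marks covered small islands along it. The selection of the window on fetal H3K27me3 bears on this order of the marks, and nothing is read from it.

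**Figure D2:**
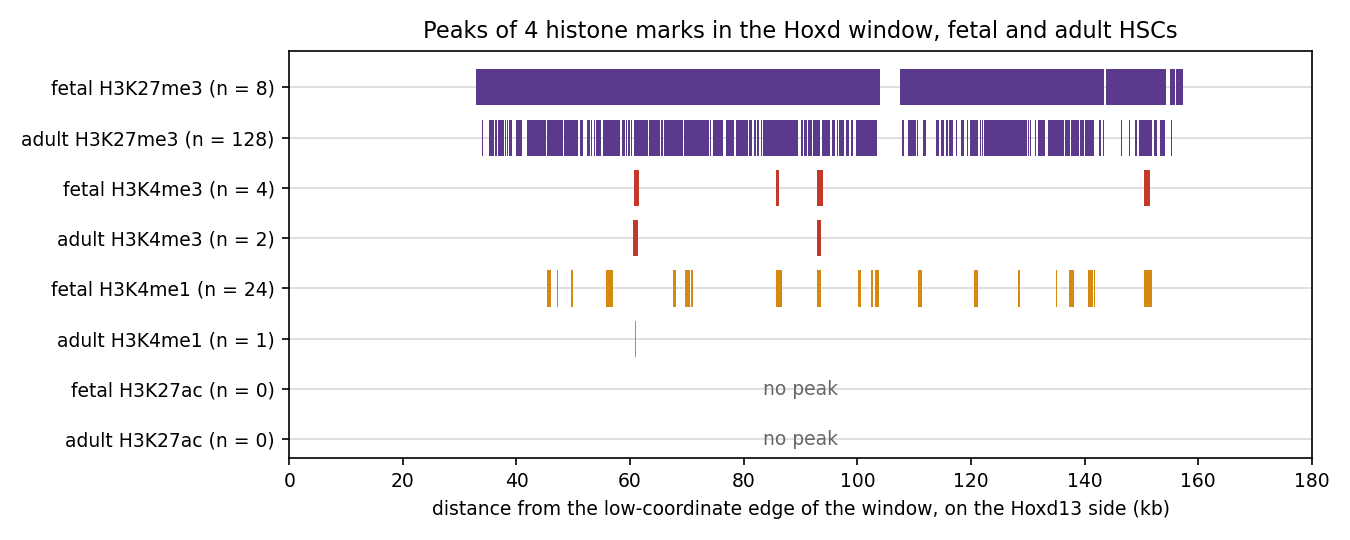
Each box is a peak of the list named at the left, with n the number of peaks, plotted against the distance in kb from the low-coordinate edge of the window. The 8 fetal H3K27me3 peaks form a nearly unbroken stretch with a visible gap after the widest peak, the 128 adult pieces fill the same stretch, and both H3K27ac rows are empty.

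To set these lengths beside the rest of the genome, they were compared with 9318 other windows of 180 kb tiled along chromosomes 1 to 19 and X that held at least 1 peak of any list. None of them held more fetal H3K27me3 than the Hoxd window, and the highest held 110928 bp, a rank that the selection of the window bears on. For adult H3K27me3, 1 window held more, at 88377 bp. The selection bears on this rank too, since 99.8% of the adult length lay within the fetal mark. With the windows started 90 kb later, the numbers holding more were 2 for the fetal and 1 for the adult mark. The highest of these held 141776 bp of the fetal and 98036 bp of the adult mark. The median window held 0 bp of either. The Hoxd window was unremarkable for fetal H3K4me3, with less of it in 64.5% of windows, and for adult H3K4me3, with less in 42.4%. For fetal H3K4me1, 84.7% of windows held less. An empty H3K27ac row was common, since 28.0% of windows had no fetal and 36.2% no adult H3K27ac peak.

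The 8 fetal pieces of H3K27me3 differed widely in size. The widest, chr2:74484186-74554065, measured 69880 bp, and no other fetal H3K27me3 peak of the genome was wider. The next widest of the genome, on chromosome 9, measured 63715 bp. The second piece of the window, chr2:74557558-74593394, measured 35837 bp and ranked 16 in its list. Another, chr2:74597170-74604282, measured 7113 bp. The other 5 pieces were between 958 and 1736 bp wide. They lay at the ends of the stretch, at chr2:74482815-74484075, chr2:74604971-74605928 and chr2:74606068-74607323, or between the 35837 bp and the 7113 bp piece, at chr2:74593733-74595307 and chr2:74595389-74597124.

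Wider fetal pieces mostly scored higher, with Spearman's rho of 0.833 over the 8 pieces, but the widest did not score highest. The score is the authors' own value for a peak, has no stated unit and was used only within a list. The 7113 bp piece scored 3100, above 96.3% of fetal H3K27me3 peaks, and the 35837 bp piece scored 1824.03, above 89.8%. Many fetal peaks shared the score of 3100, which was also the median of the 425 other fetal peaks wider than 10 kb. The widest piece scored 340.35, above 63.3% of its list. Of the 103 other fetal peaks wider than 20 kb, 100 scored higher than this widest peak. Over all 105 fetal peaks wider than 20 kb, Spearman's rho between width and score was -0.527, a description over peaks of 1 list.

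Adult H3K27me3 followed the outline of the fetal stretch. The first adult piece began at 74483948 and the last ended at 74605395, against 74482815 and 74607323 in the fetal list. All 128 adult pieces overlapped a fetal piece, and 92.4% of all adult H3K27me3 peaks did. The selection on the fetal mark largely fixes the first count, and nothing is read from it. In bases, 83256 of the 83398 bp of adult H3K27me3 lay within fetal H3K27me3, and 142 bp lay outside it. In the other direction, 6 of 8 fetal pieces overlapped an adult one, where 35.5% of all fetal H3K27me3 peaks did. The fetal pieces without an adult peak were chr2:74593733-74595307 and chr2:74606068-74607323. Of the fetal length in the window, 69.6% was also covered in the adult list, against 23.2% over the chromosomes as a whole. The ratio of fetal to adult covered length was 1.43 in the window and 4.1 over the chromosomes. These values set the window beside the genome as a description, since its selection on fetal H3K27me3 bears on each of them.

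The adult pieces were short and closely spaced. Their widths ran from 159 to 2959 bp with a median of 393.5 bp. The 27 pieces of at least 1 kb made up 21.1% of the pieces and 52.5% of their length, whereas 6.45% of all adult H3K27me3 peaks were that wide. The selection of the window on fetal H3K27me3 bears on this contrast and on those of score below. No such shares are given for adult pieces in the other wide fetal peaks. The widest adult pieces were chr2:74505187-74508145 (2959 bp), chr2:74572342-74574934 (2593 bp) and chr2:74584159-74586449 (2291 bp). The best-scoring were that of 2593 bp, at 1568.56, that of 2959 bp, at 1345.51, and chr2:74498571-74500802, at 1266.01. Each of these scored above at least 99.6% of the adult list. Of the 128 pieces, 89 scored above the median of the adult list. At the other end, 42 of the 128 pieces, or 32.8%, scored below 100, as did 54.8% of the whole list. Width and score rose together, with Spearman's rho of 0.961 over the 128 pieces, which share 1 library pool and lie side by side.

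**Figure D3:**
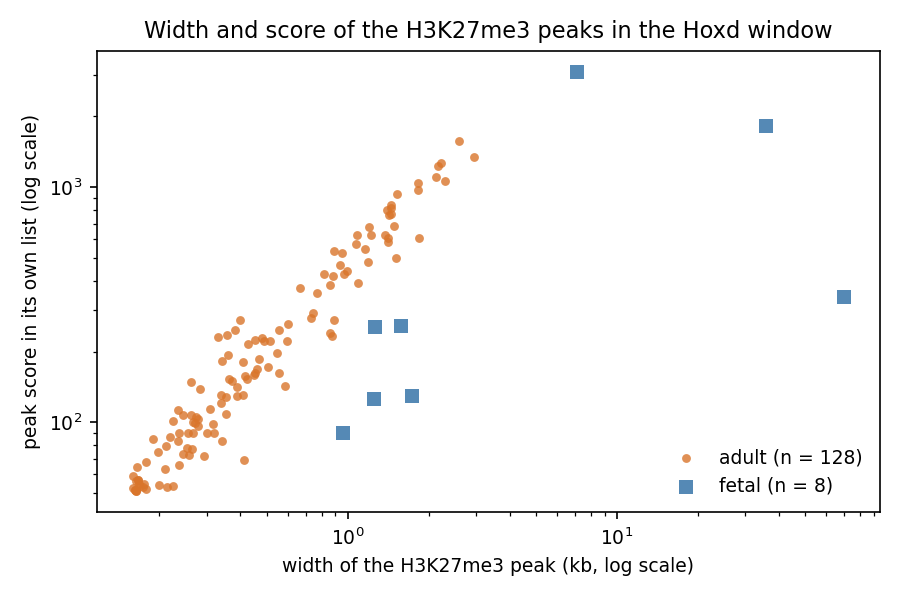
Each point is an H3K27me3 peak of the Hoxd window, with its width in kb and its score in its own list, both on log scales, for 128 adult and 8 fetal peaks. Adult pieces rise along a narrow band up to a width of 2959 bp and a score of 1568.56, while the widest fetal peak, of 69880 bp, has a score of only 340.35.

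Gaps in H3K27me3 were counted between the first and the last piece of each stage. The fetal stretch of 124509 bp had 7 gaps that summed to 4893 bp, or 3.93% of it. The adult stretch of 121448 bp had 127 gaps that summed to 38050 bp, or 31.3%. The median adult gap was 155 bp, 48 of the 127 were shorter than 100 bp, and 6 were longer than 1 kb.

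The longest gap was at the same place at both stages. In the fetal list it was chr2:74554066-74557557, 3492 bp between the widest and the second piece. In the adult list it was chr2:74553503-74557941, 4439 bp. The 3492 bp left free at both stages held no peak of H3K4me3, H3K4me1 or H3K27ac in any list. Across the genome these pieces were the only neighbours among the 105 fetal H3K27me3 peaks wider than 20 kb that lay within 5 kb of each other. The next longest fetal gaps were 688 bp at chr2:74604283-74604970, free of adult H3K27me3 as well, and 338 bp at chr2:74593395-74593732. The remaining 4 fetal gaps were between 45 and 139 bp long.

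Most of the other long adult gaps had fetal H3K27me3. That at chr2:74593491-74596447 (2957 bp) had fetal H3K27me3 over 2634 bp, that at chr2:74562142-74563883 (1742 bp) over its whole length and that at chr2:74596623-74597791 (1169 bp) over 1124 bp. The adult gap chr2:74604092-74605161 (1070 bp) had fetal H3K27me3 over 382 bp. No H3K4me3, H3K4me1 or H3K27ac peak of either stage lay in these 4 gaps. The adult list thus lacked H3K27me3 at these places without a peak of another mark there.

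In bins of 10 kb the stages differed most at the edges and after the long gap. Fetal H3K27me3 covered all of 9 bins and between 65.0% and 95.4% of 4 others. Adult H3K27me3 reached 83.1% to 89.6% of a bin in 5 bins, the highest being the bin that begins 120 kb into the window, within the second fetal piece. It covered 42.6% of the bin at 110 kb, which the fetal list covered in full. It fell to 30.6% and 32.9% in the last 2 covered bins, towards Hoxd1, where the fetal list had 95.4% and 65.0%. The first covered bin, towards Hoxd13, had 70.8% fetal and 32.5% adult coverage.

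**Figure D4:**
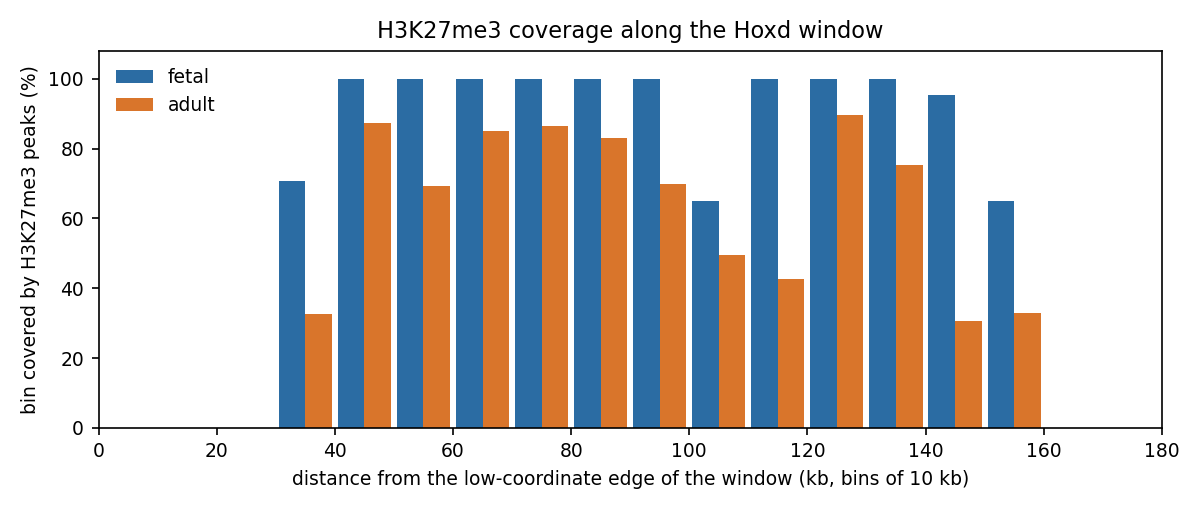
Bars give the share (%) of each 10 kb bin covered by H3K27me3 peaks in the fetal (blue) and adult (orange) list, against the distance in kb from the low-coordinate edge of the window. Adult bars stand between 30.6% and 89.6% wherever H3K27me3 is present, and are lowest near the ends and at 110 kb.

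The broad fetal pieces of Hoxd were set beside the 103 other fetal H3K27me3 peaks wider than 20 kb, which are the most similar stretches of the genome by the same measure. Adult H3K27me3 covered 54656 bp, or 78.21%, of the widest Hoxd piece in 73 adult pieces. Only 1 of the 103 others had a higher adult share, and theirs ranged from 19.4% to 78.24% with a median of 61.6%. Of the second Hoxd piece, 67.3% was covered in 44 adult pieces, and 27 of the 103 had more. The number of adult pieces per 10 kb was ordinary, at 10.4 and 12.3 against a median of 10.7. The widest Hoxd piece was thus near the top in how much of it was marked in adult HSCs, and ordinary in how many pieces the adult marking was divided into.

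**Figure D5:**
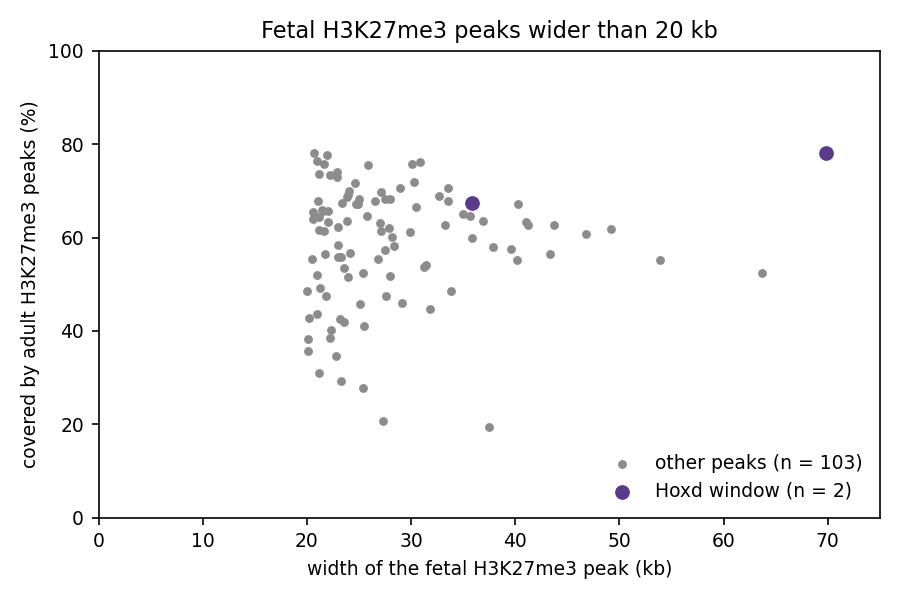
Points are the 105 fetal H3K27me3 peaks wider than 20 kb, with their width in kb on the horizontal axis and the share of their length covered by adult H3K27me3 peaks (%) on the vertical axis. The Hoxd peaks (purple) are at 78.21% and 67.3%, and the 103 others (grey) reach from 19.4% to 78.24%.

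Joining neighbouring peaks showed how close the adult pieces lay. With peaks up to 1 kb apart joined, the 128 adult pieces became 7, an 18.3-fold fall, where the whole adult list fell 3.09-fold. The widest joined adult piece then measured 68367 bp. The selection of the window on fetal H3K27me3 bears on this contrast, and no such fall is given for the 103 other wide peaks. In those, adult pieces per 10 kb had a median of 10.7, against 10.4 and 12.3 in the broad Hoxd pieces, so close spacing was not particular to Hoxd. With peaks up to 5 kb apart joined, both stages showed 1 stretch, of 124509 bp in the fetal and 121448 bp in the adult list. The fetal stretch ranked 3 in the genome under this joining, after stretches of 155219 bp on chromosome 15 and 130781 bp on chromosome 19. Those were built from 38 and 21 peaks, and the Hoxd stretch from 8.

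H3K4me3 formed 4 islands in the fetal list and 2 in the adult list, all of which overlapped H3K27me3 of the same stage and were bivalent in that sense. The 4 fetal peaks lay wholly within fetal H3K27me3, and 22.3% of all fetal H3K4me3 peaks overlapped that mark; nothing is read from this contrast, since the window was selected on fetal H3K27me3. Both adult peaks overlapped adult H3K27me3, over 588 of 947 bp and 527 of 772 bp, where 12.9% of all adult H3K4me3 peaks overlapped it. Adult H3K27me3 in the window lay almost wholly within the fetal mark, so the selection bears on this contrast too, and nothing is read from it. None of the 4 fetal islands overlapped fetal H3K27ac, which 74.2% of fetal H3K4me3 peaks did. Neither adult island overlapped adult H3K27ac, which 75.7% of adult H3K4me3 peaks did. Both results follow from the lack of any H3K27ac peak in the window. With 4 and 2 peaks, these counts describe the islands and estimate no share.

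The first H3K4me3 island was shared by both stages. It was called at chr2:74510646-74511488 in the fetal list (843 bp, score 138.54) and at chr2:74510476-74511422 in the adult list (947 bp, score 100.51). Adult H3K4me3 covered 92.2% of the fetal peak. Adult H3K27me3 covered 654 bp, or 77.6%, of the fetal peak. The adult H3K4me1 peak of the window, chr2:74510822-74510965, lay inside this island, and no fetal H3K4me1 peak did. That adult peak (144 bp, score 51.15) also lay within adult H3K27me3, where 3.44% of adult H3K4me1 peaks overlapped the mark. The choice of the window bears on this overlap as well, and nothing is read from it.

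The next shared island was at chr2:74542916-74544021 in the fetal list (1106 bp, score 219.21) and at chr2:74542913-74543684 in the adult list (772 bp, score 64.09). Adult H3K4me3 covered 69.5% of the fetal peak. Both islands with an adult counterpart lay within the widest fetal H3K27me3 piece. In all, 2 of 4 fetal islands overlapped adult H3K4me3, where 91.0% of fetal H3K4me3 peaks did. Of the adult islands 2 of 2 overlapped fetal H3K4me3, where 92.8% of adult H3K4me3 peaks did.

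The remaining islands were in the fetal list only. That at chr2:74535751-74536271 was 521 bp wide and scored 50.79, close to the lowest score of the list, above 0.251% of its peaks. That at chr2:74600549-74601546 was 998 bp wide, scored 135.72 and lay in the 7113 bp H3K27me3 piece towards Hoxd1. Adult H3K27me3 covered 100% of both. At these places the adult lists thus had H3K27me3 and no H3K4me3 peak. No H3K4me3 peak of either stage lay in the 35837 bp piece, and 36 of the 103 other wide fetal H3K27me3 peaks also had no fetal H3K4me3 peak.

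All islands were weak among H3K4me3 peaks, and 0 of them reached the median score of their list. In the fetal list the scores of the 4 islands lay above 0.251% to 21.1% of all H3K4me3 peaks, and in the adult list the 2 islands lay above 3.58% and 10.4%. Against the 3819 fetal H3K4me3 peaks that overlap H3K27me3, whose median score was 406.62 and median width 1312 bp, the highest island, at 219.21, scored above 32.8%. Against 101 fetal H3K4me3 peaks in the other wide H3K27me3 peaks, whose median score was 213.65, it scored above 51.5%. The islands were hence low even for bivalent peaks, while the strongest of them was in the middle of those within wide H3K27me3. Of the 128 adult H3K27me3 pieces, 3 overlapped an adult H3K4me3 peak, where 18.6% of all adult H3K27me3 peaks did. These pieces lie side by side, so their share depends on how finely the adult mark was split, and nothing is read from it. In adult H3K4me3 peaks per 10 kb, the widest fetal H3K27me3 piece had 0.286, against a median of 0.331 in the 103 other wide peaks. The second piece had 0, as did 41 of those 103.

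Fetal H3K4me1 was the most frequent of the H3K4 marks, with 24 peaks from chr2:74495403-74496147 to chr2:74600524-74601829. All 24 lay wholly within fetal H3K27me3, and 9.26% of all fetal H3K4me1 peaks overlapped that mark. The selection of the window on fetal H3K27me3 largely fixes this count, and nothing is read from it. There were 14 in the widest H3K27me3 piece, 9 in the 35837 bp piece and 1 in the 7113 bp piece. The distance between neighbouring centres ran from 334 to 15368 bp with a median of 2493 bp. Fetal H3K4me1 covered 11.2% of the widest and 10.8% of the second piece, so that the piece without H3K4me3 had H3K4me1 at nearly the density of the piece with 3 islands. In the 103 other wide H3K27me3 peaks together it covered 11.1%.

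The widest and best-scoring H3K4me1 peak of the window was chr2:74600524-74601829, with 1306 bp and a score of 587.6, above 93.1% of its list. It covered the whole of the fetal H3K4me3 island of 998 bp. The next in score was chr2:74535670-74536817, with 1148 bp and a score of 385.97, and covered the whole of the island of 521 bp. After it in score, chr2:74505837-74507046, had 1210 bp and a score of 321.19 and held no H3K4me3. These 3 were the only intervals of at least 1 kb in the window with 2 or more marks at 1 stage only. Adult H3K27me3 covered 1306 of 1306, 1127 of 1148 and 1210 of 1210 bp of them. Of the 4 fetal H3K4me3 islands 3 overlapped fetal H3K4me1, where 84.9% of fetal H3K4me3 peaks did.

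None of the 24 fetal H3K4me1 peaks overlapped adult H3K4me1 (0 of 24, 95% exact interval up to 14.2%), where 9.22% of all fetal H3K4me1 peaks did. Neighbouring peaks of 1 pooled list are not independent, so this interval is narrower than their dependence allows, as is the one given for H3K27ac. The adult list holds 12517 H3K4me1 peaks against 92784, so a low overlap is its rule. With equal numbers of top-scoring peaks from both stages, 2 fetal H3K4me1 peaks were left in the window beside the 1 adult peak. Adult H3K27me3 overlapped 23 of the 24 and 5.78% of all fetal H3K4me1 peaks, a count that the choice of the window also bears on. It covered 89.0% of the length of the 24 peaks. Of fetal H3K27me3 length in the window it covered 69.6%, a lower share. The same held in the 103 other wide peaks, in which adult H3K27me3 covered 86.2% of fetal H3K4me1 length and 60.8% of all length. The H3K4me1 peak without adult H3K27me3 was chr2:74553538-74553881, at the edge of the long gap. At chr2:74560714-74561367 adult H3K27me3 covered 23 of 654 bp.

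No H3K27ac peak overlapped the window at either stage. Correspondingly, 0 of 8 fetal H3K27me3 pieces overlapped fetal H3K27ac, where 8.68% of fetal H3K27me3 peaks did. For the adult pieces it was 0 of 128 (95% exact interval up to 2.84%), where 4.75% of adult H3K27me3 peaks overlapped adult H3K27ac. Both counts follow from the lack of any H3K27ac peak in the window, whatever the number of pieces. The interval treats neighbouring pieces as independent, so nothing is read from it or from these contrasts. Absence of acetylation was usual in the 103 other wide H3K27me3 peaks, of which 94 had no fetal and 96 no adult H3K27ac peak. A list reports only peaks above the caller's threshold, so lower acetylation was not detectable here.

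The nearest fetal H3K27me3 peaks outside the window were 202268 bp before and 173297 bp after it, 929 and 1367 bp wide. High-scoring H3K4me3 peaks flanked it at both stages. Before the window, H3K4me3 was called at chr2:74415716-74417761 in the fetal list (score 3100) and at chr2:74415782-74417819 in the adult list (score 2368.56). After it, H3K4me3 was called at chr2:74663353-74665042 (score 3100) and at chr2:74663238-74665139 (score 2589.15). H3K27ac lay at both places at both stages, at chr2:74416067-74417436 and chr2:74663216-74664861 in the fetal list and at chr2:74415940-74417695 and chr2:74663555-74664658 in the adult list. The stretch without H3K27ac between them was 245779 bp long in the fetal and 245859 bp in the adult list.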

How the data were processed

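Peaks were taken from 8 deposited lists, 1 per mark and stage, with no header and with chromosome, start, end, name and score. The score is the authors' deposited value without a stated unit, and a score was never compared between lists. Reads were processed with Bowtie2 2.2.2 and build mm9, per the submitters' processing notes. Peak names begin with MACS, per the deposited lists. The version, settings and control of the caller and the read depth are not given in the sources used here. Each list was taken as a call on 2 pooled replicates because it is named combined. The 4 input samples and single replicates were not analysed here.

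Analysis was limited to chromosomes 1 to 19, X and Y, with positions 1-based. Overlap meant at least 1 bp. A gap was an uncovered interval between the first and last piece. Counts of 0 among 24 or more peaks carry 95% exact Clopper-Pearson intervals, which cover counting error only; shares of bases carry none, since bases are not independent. Peaks named were all those of lists with at most 12 in the window, and otherwise the 3 widest, the 3 best-scoring and the first and last, with the longest gaps and intervals of 1 kb or more with 2 marks at 1 stage. Other peaks named (the H3K4me1 peaks least covered in adult cells and the peaks flanking the window) were chosen after their values were seen. The members and lists were chosen with earlier results of these data known. With no mm9 annotation used here, the planned lookups of cell type markers, Polycomb genes and other Hox genes were left out, so the cell type was not checked against markers. Promoter sequences are from RefSeq (GRCm38.p6). The interval code was tested on simulated data. Python 3.11.15, numpy 2.4.6, pandas 2.3.3, scipy 1.17.1 and matplotlib 3.10.9 were used.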

Additional observations from a re-analysis of the deposited data

How the results depend on the processing

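No paired analysis was possible because replicates are pooled in every list, and leaving out a replicate was likewise not possible. Joining at distances other than 1 kb and the set of peaks over 10 kb were added after seeing the data. Of 102 values under alternatives for 35 results, 70 stayed within 1.5 times the value reported (or, for shares, within its 95% interval, which for shares of bases is narrower than their dependence allows) and 32 moved. No order of the stages in covered length was reversed, although both stages tied at 0 bp for H3K4me3 under a higher score limit. Unless the construction of the alternative gives it, the cause was not tested.

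With peaks limited to those at or above the median score of their list, no H3K4me3 island was left at either stage (0 fetal and 0 adult peaks, 0 bp, 0 overlapping H3K27me3), nor the adult H3K4me1 peak (0 peaks, 0 bp, 0 overlapping). Fetal H3K4me1 fell to 14 peaks, all 14 within H3K27me3, and fetal H3K27me3 to 5 pieces with 4 gaps. Adult coverage of the widest fetal piece was 73.3%. With equal numbers of top-scoring H3K4me1 peaks, 2 fetal peaks of 2454 bp stayed in the window, beside the adult peak of 144 bp.

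Joining peaks lowers the number of pieces by construction. At 100, 200 and 500 bp the adult pieces numbered 79, 55 and 21, at 1 kb 7, at 2000 bp 3 and at 5000 bp 1. The fetal pieces numbered 4 at 200 bp, 3 at 500 bp, 2 at 1 kb and at 2000 bp, and 1 at 5000 bp. At 1 kb the gaps numbered 1 in the fetal and 6 in the adult stretch, and 97.8% of the widest fetal piece was covered by joined adult peaks. With windows started 90 kb later, 2 held more fetal H3K27me3. Among fetal peaks over 10 kb, 14.4% had more adult H3K27me3 than the 35837 bp piece, against 26.2% over 20 kb. Read depth is unknown, so a missing peak limits nothing below the caller's threshold.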
